A study of Mus musculus with 6 samples.

Results

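S100a9, Csf3r and Ifitm6 were examined as 3 genes used to mark mature neutrophils, together with Elane, a gene of the neutrophil precursor, in sections of mouse blood-forming organs measured by Xenium, an in situ assay that reads individual transcripts with gene-specific probes and places each one in a segmented cell. The 3 genes were chosen by name, with earlier results of these data known. All 3 were among the 477 genes of the panel read on 4 of the 6 sections. Csf3r alone of the 3 was among the 5050 genes of the larger panel read on the other two, and Elane was on both.

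Each of the 6 sections came from a wild-type mouse and each condition had 1 section. The smaller panel was read on an E14.5 fetal liver, a bone marrow from postnatal day 8 (P8), an adult spleen labelled as wild type with no treatment named (here the untreated spleen) and a spleen from a mouse given intraperitoneal injections of 40 mg/kg phenylhydrazine (PHZ), a compound that destroys red blood cells and so drives stress erythropoiesis. The larger panel was read on an E13.5 fetal liver and on the bone marrow of a mouse of 89 weeks, called aged here. The labels used here do not say whether the mouse of the untreated spleen received vehicle. With 1 section per condition, no difference between sections could be tested against the spread between animals. Every interval is an exact 95% interval (Poisson for counts, binomial for shares) that covers counting error only.

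Neutrophils are short-lived phagocytes made in the marrow, and in the fetus in the liver. Their precursors first make the enzymes of the primary granules, among them the serine protease neutrophil elastase (Elane), myeloperoxidase (Mpo) and cathepsin G (Ctsg), and later the proteins of the secondary and gelatinase granules, such as the collagenase Mmp8 and the gelatinase Mmp9. S100a9 encodes a calcium-binding protein that, with S100a8, forms calprotectin, which is abundant in the cytosol of neutrophils and is also made by monocytes. Csf3r encodes the receptor for G-CSF, the cytokine that drives neutrophil production and release, and it is present from the precursor stage onwards. Ifitm6 belongs to the interferon-induced transmembrane protein family and is expressed in myeloid cells, monocytes included.

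The 4 genes lie on different chromosomes, and the 250 bases before their start sites are shown because the genes were found in the same cells. The sequences were taken from RefSeq (GRCm38.p6) and run from 5′ to 3′ on the strand of the gene. Capitals mark the letters of 3 motifs searched on both strands, GAGGAA (the core bound by PU.1, an ETS factor of myeloid cells), TTGCNNAA (a C/EBP site) and TATAAA (the TATA box). The windows are chr3:90695722-90695971 on the minus strand for S100a9, chr4:126024409-126024658 on the plus strand for Csf3r, chr7:141016893-141017142 on the minus strand for Ifitm6 and chr10:79886062-79886311 on the plus strand for Elane. The start used for Csf3r lies inside the span listed for the gene, which begins at base 126023441, whereas the other 3 windows end at the edge of their genes.
S100a9: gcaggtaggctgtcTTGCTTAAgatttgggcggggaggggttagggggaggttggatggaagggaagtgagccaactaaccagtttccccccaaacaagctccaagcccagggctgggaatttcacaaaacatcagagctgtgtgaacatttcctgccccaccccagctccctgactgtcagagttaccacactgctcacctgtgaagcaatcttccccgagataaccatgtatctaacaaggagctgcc
Csf3r: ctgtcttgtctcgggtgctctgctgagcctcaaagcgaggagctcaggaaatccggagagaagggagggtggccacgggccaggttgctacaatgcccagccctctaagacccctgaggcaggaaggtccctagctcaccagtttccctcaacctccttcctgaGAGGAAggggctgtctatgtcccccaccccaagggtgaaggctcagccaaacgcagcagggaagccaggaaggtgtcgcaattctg
Ifitm6: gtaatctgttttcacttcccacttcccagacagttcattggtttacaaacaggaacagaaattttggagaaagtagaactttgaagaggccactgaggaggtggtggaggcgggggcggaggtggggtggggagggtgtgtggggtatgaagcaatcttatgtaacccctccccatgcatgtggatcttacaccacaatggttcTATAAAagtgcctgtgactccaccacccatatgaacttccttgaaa
Elane: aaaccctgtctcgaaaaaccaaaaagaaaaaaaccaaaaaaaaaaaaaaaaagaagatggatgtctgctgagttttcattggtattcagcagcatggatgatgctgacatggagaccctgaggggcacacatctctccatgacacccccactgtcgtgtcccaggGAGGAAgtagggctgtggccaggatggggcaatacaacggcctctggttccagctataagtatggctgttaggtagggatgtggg
None of the 3 motifs searched was common to the windows of S100a9, Csf3r and Ifitm6, and other forms of these sites were not searched. GAGGAA was found once each in Csf3r and Elane, at 86 and 85 bases before the start, and in 23.1% of all 27025 windows of this length. TTGCNNAA was found in S100a9 only among the 4, and in 9.55% of all windows. TATAAA was found in Ifitm6 only, and in 13.0% of all windows. These matches are letters in a window and do not show binding.

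The sections held between 5285 and 143810 segmented cells and between 1384795 and 20952143 gene transcripts, with medians of 60 to 190.0 transcripts per cell. The 6 erythroid genes together made 240490 of every 1000000 gene transcripts (CPM) in the E14.5 liver, 151253 in the P8 marrow, 148131 in the PHZ spleen and 16404 in the untreated spleen, and the 4 hepatocyte genes made 32866 in the E14.5 liver against at most 122.2 elsewhere on that panel. On the E13.5 liver, 1 of the 4 hepatocyte genes was on the panel, at 2.89 CPM, so that its liver identity was not shown by these genes. The 4 stromal genes made 87312 CPM in the P8 marrow, against 12032 in the E14.5 liver and 9544 and 16021 in the untreated and PHZ spleen. The cartilage genes Col2a1 and Acan, looked up after these values were seen, made 18168 and 13894 CPM in the P8 marrow and 25.9 and 28.97 in the E14.5 liver. The P8 section thus held skeletal tissue besides marrow, and its shares of cells and levels in CPM are over all of it. T cell genes made 25630 CPM in the untreated spleen and 4300 in the PHZ spleen. The busiest negative control probe had at most 105 transcripts in any section. At most 6 cell names were shared by any pair of sections.

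The number of probe sets per gene differed on the smaller panel, with 1 for S100a9, 8 for Csf3r, 8 for Ifitm6 and 6 for Elane against a median of 8.0, and Csf3r had 2 on the larger panel. Levels are therefore compared for 1 gene across sections, and across panels only with this difference in view. 

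S100a9 was by far highest in the P8 marrow. It made 812 CPM in the E14.5 liver (95% interval 799.6 to 824), 11582 in the P8 marrow (11499 to 11666), 2187 in the untreated spleen (2159 to 2216) and 2161 in the PHZ spleen (2134 to 2188). The intervals of the 2 spleens overlapped and no others did. In the P8 marrow S100a9 was the 21st most abundant gene of 477 and 40.7% of cells held at least 1 transcript, against 5.56% in the E14.5 liver.

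Ifitm6 was likewise highest in the P8 marrow and lowest in the E14.5 liver, and it differed between the spleens beyond counting error. Its level was 214.7 CPM in the E14.5 liver, 4290 in the P8 marrow, 1686 in the untreated spleen (1661 to 1712) and 1168 in the PHZ spleen (1148 to 1188).

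Csf3r differed least among the marrow and the spleens. Its level was 457 CPM in the E14.5 liver (448 to 466), 1842 in the P8 marrow (1809 to 1875), 1831 in the untreated spleen (1805 to 1858) and 1843 in the PHZ spleen (1819 to 1868). The last 3 intervals overlapped, and the E14.5 liver lay below them. On the larger panel the E13.5 liver held only 24 Csf3r transcripts, or 17.3 CPM (11.1 to 25.8), and the aged marrow 4585, or 351 CPM (341 to 362). Counted over the 233 genes on both panels, Csf3r made 230.1 CPM in the E13.5 liver (147.4 to 342), 1073 in the E14.5 liver, 3869 in the P8 marrow and 3522 in the aged marrow, with 3463 and 3738 in the untreated and PHZ spleen. The 2 livers were lower than the other 4 sections on this common scale. On it the intervals of the P8 marrow (3800 to 3940), untreated spleen (3414 to 3513) and PHZ spleen (3687 to 3789) did not overlap. The likeness of these sections thus depended on the total used. The probes, run, cell segmentation, age and, for the aged marrow, tissue preparation that separate the panels cannot be told apart.

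Elane, the precursor gene, had another order. It made 1617 CPM in the E14.5 liver, 4789 in the P8 marrow, 248 in the untreated spleen and 1031 in the PHZ spleen. On the larger panel it made 36.1 CPM in the E13.5 liver and 2946 in the aged marrow. Over the 233 genes on both panels it made 479 CPM in the E13.5 and 3799 in the E14.5 liver. On that scale it made 10061 in the P8 and 29536 in the aged marrow, and 470 and 2091 in the untreated and PHZ spleen. The same limits between panels hold as for Csf3r. Cells with Elane were 7.91% of the E14.5 liver, 16.5% of the P8 marrow, 1.23% of the untreated spleen and 4.19% of the PHZ spleen.

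**Figure D1:**
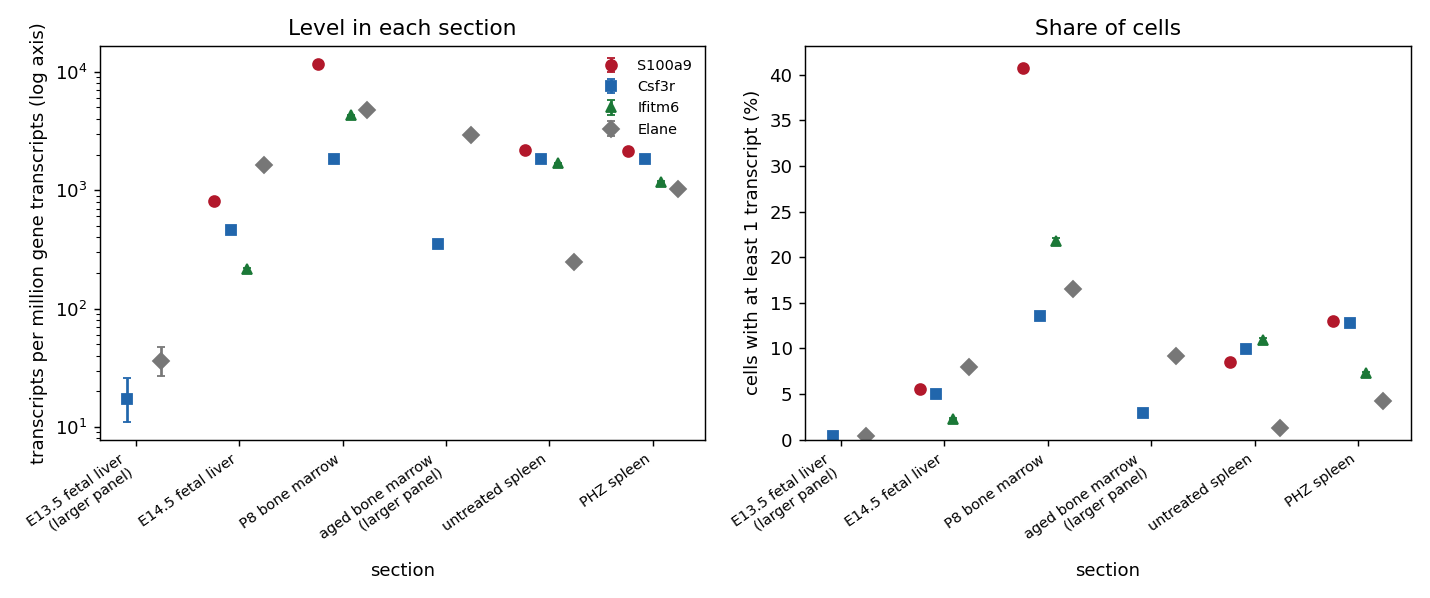
Level of S100a9, Csf3r, Ifitm6 and Elane in each section in CPM on a log axis (left) and as the share of cells with at least 1 transcript (right), each point 1 section with its 95% counting interval. S100a9 stands highest in the P8 marrow at 11582 CPM and 40.7% of cells. Csf3r is level in CPM over all genes of the panel across the P8 marrow, untreated spleen and PHZ spleen, but its share of cells is 13.6%, 9.93% and 12.8%.

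From the E14.5 liver to the P8 marrow all 3 genes were at least 1.5-fold higher in CPM, and so were 47.0% of the 474 genes with at least 100 transcripts over both sections. The log2 differences were 3.83 for S100a9 (14.3-fold), 4.32 for Ifitm6 (19.98-fold) and 2.01 for Csf3r (4.03-fold), beside a median of 0.50 over all genes. Elane was 1.57 higher on the log2 scale. Of the 474 genes, 33 had a larger rise than Ifitm6, 45 than S100a9 and 108 than Csf3r. From the E13.5 liver to the aged marrow Csf3r was 4.34 higher on the log2 scale (3.77 to 4.98), where 32.9% of the 3639 genes with at least 100 transcripts were at least 1.5-fold higher.

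The transcripts were spread over cells in different ways. A fixed cut of 10 transcripts follows the abundance and probe sets of a gene, so the shares below are not matched between genes. In the P8 marrow 1309 cells held at least 10 S100a9 transcripts and together held 23.2% of them, with a maximum of 59 in 1 cell. Csf3r came in small numbers everywhere, and cells with at least 10 held 0.446% of its transcripts in the P8 marrow and 5.16% in the untreated spleen. For Ifitm6 this share was 9.01% in the P8 marrow and 2.35% in the untreated spleen. In the PHZ spleen it was 6.97% for S100a9, 0.755% for Csf3r and 13.6% for Ifitm6.

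The 3 genes were seen in the same cells more often than cell depth alone would give. For each pair, the cells with both genes were divided by the number expected if the genes were independent within 20 strata of cells of similar depth. In the 4 sections of the smaller panel and the 2 of the larger there were 26 pairs of genes including Elane, and in 25 of them the interval of this ratio lay above 1. The remaining pair was Ifitm6 with Elane in the untreated spleen, with 209 cells observed and 189 expected. Ratios above 1 were also common with other genes, so this count does not set the 4 genes apart. Ranked by this ratio with S100a9, Clec4a3 was 192nd of 303 genes in the E14.5 liver, at -0.04 on the log2 scale. In the P8 marrow it was 135th of 336, at 0.15 (0.08 to 0.23). Elane ranked 44th of 259 genes with Ifitm6 in the E14.5 liver. The strata match cells by depth and not by tissue, and the part of mixed tissue in these ratios was not tested.

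In the E14.5 liver these ratios were the highest of the smaller panel for 5 of the 6 pairs. S100a9 and Ifitm6 were together in 981 cells where 153.9 were expected, which is 2.67 on the log2 scale (2.58 to 2.76). For Csf3r with Ifitm6 the cells were 824 and 139.1 and the log2 value 2.57, and for S100a9 with Csf3r they were 1638 and 339 and the value 2.27. Among the cells with S100a9, 43.4% also held Elane, and among those with Csf3r, 41.8% did, whereas among those with Ifitm6 24.9% did. The Ifitm6 and Elane pair had the lowest log2 ratio of the section, 1.59.

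In the P8 marrow the genes were common, which limits how high such a ratio can go, and the log2 ratios lay between 0.51 for Ifitm6 with Elane and 1.22 for Csf3r with Ifitm6. As shares they were high: 83.8% of the cells with Csf3r and 82.6% of those with Ifitm6 also held S100a9. There were 3620 cells with all 3 genes, 6.88% of the section, against 0.349% in the E14.5 liver. The P8 ratios were taken over the whole section, skeletal tissue included. In it, 17155 cells lay beyond 80 µm from any cell with at least 10 S100a9 transcripts. Their mean counts were only 0.0647 for S100a9, 0.00898 for Csf3r and 0.0570 for Elane. How much of the P8 ratios came from marrow lying beside such cells was not tested.

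The 2 spleens had ratios within counting error of each other for S100a9 with Csf3r and unequal ones for the pairs with Ifitm6 and for Csf3r with Elane. S100a9 and Csf3r shared 3245 cells in the untreated spleen, a log2 ratio of 1.54 (1.49 to 1.59), and 4715 in the PHZ spleen, a log2 ratio of 1.55 (1.504 to 1.587). S100a9 and Ifitm6 shared 1713 cells in the untreated spleen, a log2 ratio of 0.56 (0.49 to 0.62), and 3066 in the PHZ spleen, a log2 ratio of 1.69 (1.64 to 1.74). Of the cells with Ifitm6, 14.5% held S100a9 in the untreated spleen and 44.7% did in the PHZ spleen. The pair Ifitm6 and Elane stood at 0.15 (-0.06 to 0.34) in the untreated spleen and at 1.64 (1.55 to 1.73) in the PHZ spleen. Csf3r and Elane stood at 0.56 (0.39 to 0.73) and 1.29 (1.21 to 1.36). S100a9 and Elane stood at 1.52 (1.38 to 1.66) and 1.71 (1.64 to 1.77), with overlapping intervals, and over nuclei at 1.80 (1.58 to 2.01) and 2.29 (2.20 to 2.38), where they did not overlap. The intervals of these pairs with Ifitm6, and of Csf3r with Elane, did not overlap between the spleens, which covers counting error and not the spread between mice. For the pairs with Ifitm6 the untreated spleen stayed below the PHZ spleen on other measures, but the values moved. Over cells with at least 2 transcripts of each gene, Ifitm6 with Elane stood at 0.77 (0.21 to 1.29) and 2.996 (2.86 to 3.13) and S100a9 with Ifitm6 at 1.49 and 3.14, and without the depth strata Ifitm6 with Elane stood at 0.52 (0.32 to 0.72) in the untreated spleen, so that its interval lay above 0 on both. For S100a9 with Csf3r the likeness depended on the measure, with 3.22 (3.15 to 3.30) and 2.81 (2.74 to 2.88) over cells with at least 2 transcripts of each gene, and 1.83 and 1.59 without the depth strata. Without the strata the spleens stood closer for Csf3r with Elane, at 1.10 (0.93 to 1.27) and 1.36 (1.28 to 1.44). These intervals lay near each other but did not overlap.

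On the larger panel Csf3r and Elane shared 766 cells in the aged marrow, a log2 ratio of 0.76, where the P8 marrow stood at 0.83 on the smaller. The panels differ in probe sets for both genes. Csf3r was seen in 2.92% of aged and 13.6% of P8 marrow cells, so the 2 ratios are not matched. In the E13.5 liver the pair was seen in 3 cells against 0.181 expected, too few for more than the sign.

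**Figure D2:**
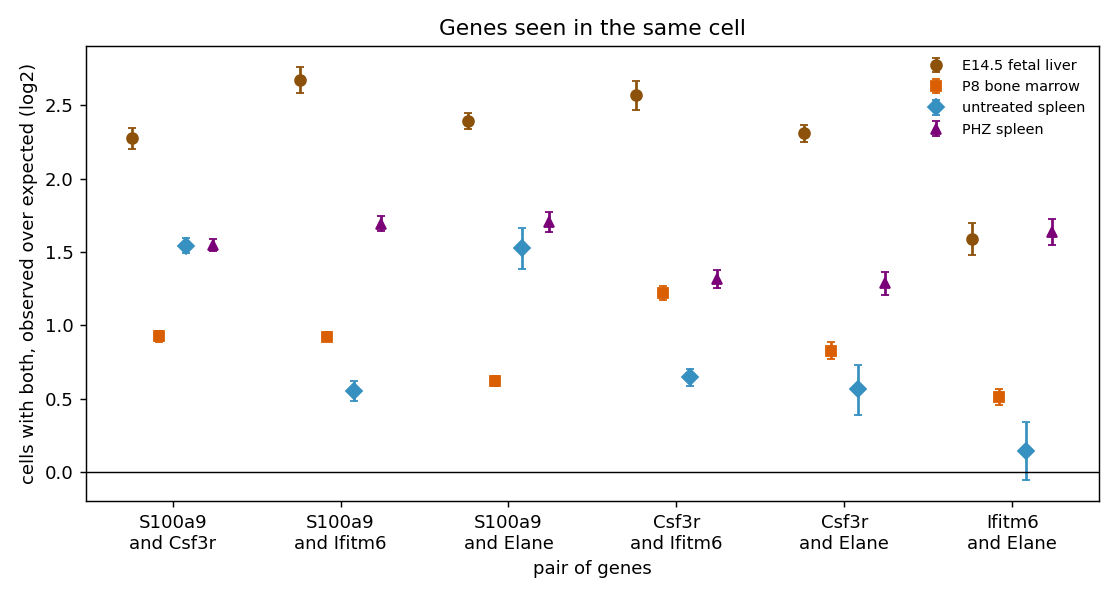
Cells holding both genes of a pair, observed over expected on a log2 axis, for the 6 pairs in the 4 sections of the smaller panel, with 95% counting intervals; 0 is the number expected at equal cell depth. The untreated and PHZ spleen coincide for S100a9 with Csf3r at 1.54 and 1.55 and stand apart for the 3 pairs with Ifitm6 and for Csf3r with Elane at 0.56 and 1.29.

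The more Elane a cell held, the higher was its mean count of S100a9 and Csf3r, whereas the Ifitm6 count did not climb through the highest class in every section. In the E14.5 liver the mean S100a9 count per cell went from 0.0651 in cells without Elane to 4.16 in the 940 cells with at least 10 Elane transcripts, and Csf3r from 0.0441 to 2.05. Ifitm6 was at 0.0312 without Elane, at 0.177 with 5 to 9 and at 0.138 with at least 10. In the liver, marrow and untreated spleen the mean Ifitm6 count was lower in the highest Elane class than in the class before it, with overlapping intervals in the liver and the untreated spleen.

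In the P8 marrow all 3 genes stood higher than in the E14.5 liver in cells without Elane, with Ifitm6 above Csf3r. In cells with at least 10 Elane transcripts Csf3r stood lower than in the liver. S100a9 stood at 1.16 transcripts per cell without Elane and 5.39 with at least 10, Csf3r at 0.181 and 1.29, and Ifitm6 at 0.468 and 0.719 after a peak of 0.892 at 5 to 9. In the PHZ spleen Ifitm6 stood at 0.108 without Elane, at 1.92 with 5 to 9 (1.81 to 2.04) and at 2.21 in the 228 cells with at least 10 Elane transcripts (2.03 to 2.42), so that the last 2 intervals overlapped. In the untreated spleen it was 0.382 in the 34 such cells (95% interval 0.204 to 0.654). In the aged marrow Csf3r went from 0.0287 to 0.203 along the same classes. Mpo, whose product shares the primary granules with elastase, went from 0.297 to 12.6 in the E14.5 liver.

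Cells with more Elane also differ in depth, and relative to their other transcripts the picture was not the same in every section. S100a9 in the E14.5 liver went from 368 CPM without Elane to 19850 with at least 10, Csf3r from 249 to 9806 and Ifitm6 from 176 to 660.5. In the aged marrow Csf3r went only from 339 to 566 CPM. In the untreated spleen S100a9 was at 14289 CPM in cells with 5 to 9 Elane transcripts and at 12101 in those with at least 10. Ifitm6 on this scale was lower in the highest class than in the class before it in all 4 sections that measured it, at 11623 and 10014 CPM in the PHZ spleen.

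**Figure D3:**
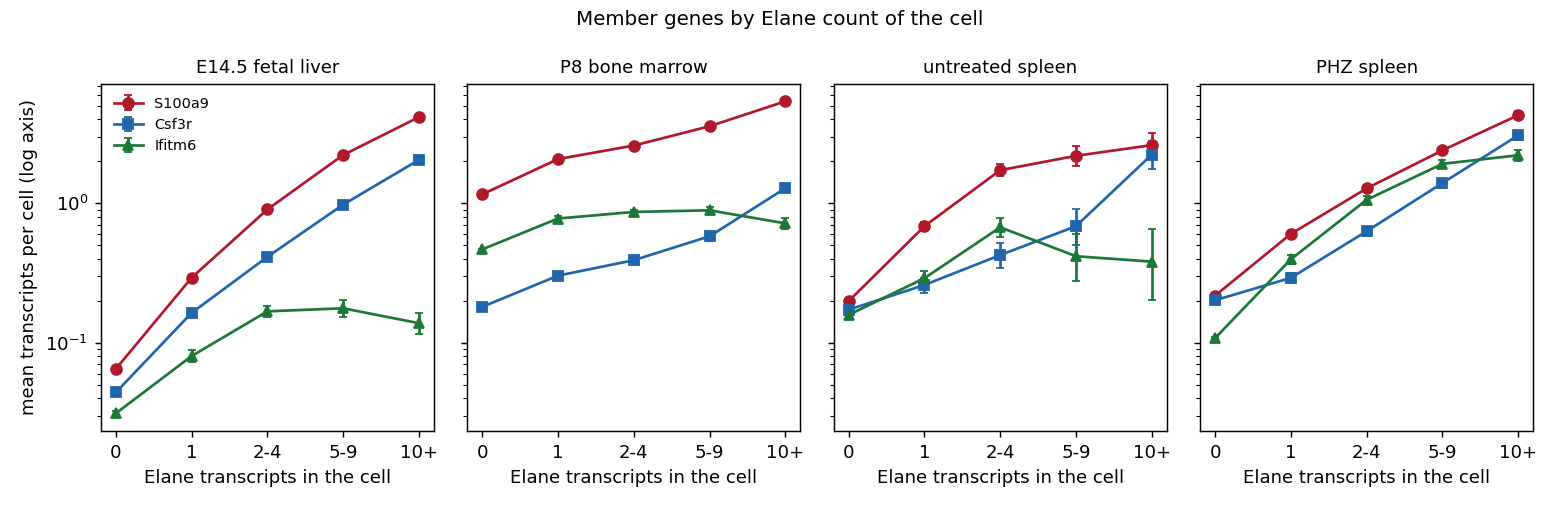
Mean transcripts per cell of S100a9, Csf3r and Ifitm6 (log axis) by the number of Elane transcripts in the cell, in 4 sections, with 95% counting intervals. The mean S100a9 and Csf3r counts climb across the Elane classes in each section, with some overlapping intervals in the untreated spleen, while Ifitm6 reaches 2.21 at the highest class in the PHZ spleen and 0.138 in the E14.5 liver.

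Cells were next grouped by the marker list that was most over-represented in them, with S100a9, Csf3r and Ifitm6 left out of the lists, to see which cells held the transcripts. Such a group is a range of a score and not a cell type. The neutrophil list held 8 genes on the smaller panel, among them the chemokine receptor Cxcr2, the surface antigen Ly6g, Mmp8, Mmp9 and the decoy receptor Il1r2. The later granule list held 4, Fcnb, Pglyrp1, Mmp8 and Mmp9, so that both lists share the metalloproteases Mmp8 and Mmp9 and compete for the same cells. The name of that list does not fix a stage, as Fcnb also climbed with the Elane count of the cell. From no Elane to at least 10 transcripts, mean Fcnb went from 0.0239 to 4.47 in the E14.5 liver. In the P8 marrow it went from 0.0987 to 3.85. Neutrophil-marked cells were 0.874% of the E14.5 liver, 7.64% of the P8 marrow, 2.22% of the untreated spleen and 3.67% of the PHZ spleen, and later granule-marked cells 1.21%, 6.29%, 1.10% and 1.43%.

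S100a9 was high in neutrophil-marked cells in all 4 sections, with a mean of 3.71 per cell in the E14.5 liver, 5.17 in the P8 marrow, 3.87 in the untreated spleen and 1.80 in the PHZ spleen. These cells held 22.4%, 27.8%, 41.2% and 25.4% of its transcripts, and later granule-marked cells 37.9%, 16.4%, 9.59% and 14.4%. Set against the shares of cells above, later granule-marked cells held more S100a9 per cell than neutrophil-marked cells in the E14.5 liver and the PHZ spleen. The neutrophil-marked cells were thus not the highest class in every section. Cells marked by the primary granule genes held 14.04% in the PHZ spleen, against 2.80% in the untreated spleen. Monocyte-marked cells held at most 4.31% of S100a9 in any of the 4 sections. With the later granule list left out, a setting chosen after seeing the data, the neutrophil-marked cells held 34.5%, 41.4%, 48.5% and 37.3%.

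Csf3r was divided in another way. In the E14.5 liver 34.2% of its transcripts lay in cells marked by the primary granule genes, 16.8% in monocyte-marked, 13.5% in later granule-marked and 5.23% in neutrophil-marked cells, the last being 8.67% without the later granule list. In the P8 marrow the neutrophil-marked cells held 34.4% and in the untreated and PHZ spleens 34.3% and 30.5%. Macrophage-marked cells held 15.5% of Csf3r in the untreated spleen and 7.75% in the PHZ spleen, where the macrophage genes made 45641 and 29576 CPM. A share of transcripts also follows the number of cells in a class, so these shares do not show enrichment.

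Ifitm6 was divided among the marked cells in different proportions in the untreated and the PHZ spleen. Monocyte-marked cells held 21.4% of its transcripts in the untreated spleen, at 0.707 per cell, later granule-marked cells 6.27%, at 0.9201, and neutrophil-marked cells 6.11%, at 0.443. Cells with no marker list over the threshold held 17.5% and macrophage-marked cells 8.50%. Cells marked by mast cell or eosinophil genes (Cpa3, Prg2 and Kit, with Kit the most abundant) held 7.58% and T cell-marked cells 7.37%. In the PHZ spleen later granule-marked cells held 26.02%, at 2.57 per cell, cells marked by primary granule genes 15.2%, at 1.04, neutrophil-marked cells 13.0%, at 0.501, and monocyte-marked cells 11.8%, at 0.345. The neutrophil-marked share depended on the lists in use and was 10.2% in the untreated and 33.0% in the PHZ spleen without the later granule list. The P8 marrow held 29.2% of Ifitm6 in later granule-marked, 27.9% in neutrophil-marked and 6.29% in monocyte-marked cells, and 52.2% in neutrophil-marked cells without the later granule list.

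Cells that should lack these genes also held some of their transcripts. T cell-marked cells of the untreated spleen held S100a9 in 3.24%, Csf3r in 4.00% and Ifitm6 in 6.23% of cells, and those of the PHZ spleen in 5.34%, 7.34% and 4.52%, at median depths of 79.0 and 82.0 transcripts. Erythroid-marked cells of the P8 marrow held S100a9 in 37.3%, at a median depth of 111 transcripts. The share of 40.7% for S100a9 over the whole P8 marrow is therefore near that of cells that should lack it, and the share does not count neutrophils. Cell outlines were made by expanding nuclei, and its part in these shares was not tested.

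Other genes were ranked by the same ratio among those present in at least 0.5% of the cells of a section and sharing at least 50 cells, so that a gene scarce in a section could not be ranked there and the first genes are not matched between sections. The first for S100a9 was Abca13 in the E14.5 liver, the P8 marrow and the PHZ spleen (log2 ratios 3.40, 1.03 and 2.21) and Mmp8 in the untreated spleen (2.56). Csf3r was seen most with Ctsg in the E14.5 liver (3.27), with Il1r2 in the P8 marrow (1.76), with Mmp8 in the untreated spleen (2.10), with the lipase gene Lipg in the PHZ spleen (2.22) and, on the larger panel, with the cytokine gene Il1b in the aged marrow (2.15). Cxcr2 was among the first 5 for Csf3r in the E14.5 liver, both marrows and the PHZ spleen.

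For Ifitm6 the first 5 in the untreated spleen were the haptoglobin gene Hp (1.37), the ficolin gene Fcnb (1.34), the monocyte gene F13a1 (1.18), Pi16 (1.13) and Apoc2 (1.12). The first of these lay below the first partner of Ifitm6 in the E14.5 liver, the P8 marrow and the PHZ spleen. The neutrophil list was spread over the 325 genes ranked in the untreated spleen. Mmp8 was 6th (1.10), Mrgpra2a 8th (0.98), Ly6g 12th (0.93), Mmp9 16th (0.78) and Il1r2 17th (0.78). Stfa2l1 was 21st (0.60), Cxcr2 38th (0.34) and Asprv1 188th (-0.19). In the PHZ spleen the first 5 for Ifitm6 were Abca13 (2.54), Fcnb (2.46), Pi16 (2.38), Lipg (2.34) and Ly6g (2.20), and Cxcr2 ranked 6th of 291 at 2.06. With Ccr2, Ifitm6 stood at 0.64 in the untreated and 1.42 in the PHZ spleen, and with F13a1 at 1.18 and 1.23. With Ms4a6c it stood at 0.52 and 0.62, and with Clec4a3 at 0.53 and 0.54. None of these co-detection ratios of Ifitm6 with a monocyte gene was lower in the PHZ spleen. For F13a1 and Clec4a3 the intervals of the ratios overlapped between the spleens. In the E14.5 liver the first for Ifitm6 was Mmp8 (3.99), and the monocyte chemokine receptor Ccr2 was 4th at 3.08. In the P8 marrow it was Ly6g (1.61), and Ccr2 was 28th at 0.88.

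The comparison of the spleens asked how these genes stood under PHZ. In CPM, S100a9 and Csf3r were level, Ifitm6 was lower and Elane was higher. S100a9 had 22641 transcripts in the untreated spleen and 24705 in the PHZ spleen, a log2 ratio of -0.02 (-0.04 to 0.01). Csf3r had 18958 and 21070, a log2 ratio of 0.01 (-0.02 to 0.04). Ifitm6 had 17457 and 13353, a log2 ratio of -0.53 (-0.56 to -0.50), which is 1.44-fold lower. Elane had 2571 and 11788, a log2 ratio of 2.05 (1.99 to 2.12), which is 4.15-fold higher.

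None of the 3 genes differed by 1.5-fold in CPM, against 58.1% of the 472 genes with at least 100 transcripts over both spleens, 16.5% of them upwards and 41.5% downwards. The median over all genes was -0.45, so that S100a9 and Csf3r stood above the middle gene and Ifitm6 close to it, with 133, 125 and 259 genes above them. The erythroid genes took up a larger part of the PHZ section, and per cell the log2 ratios became 0.32 for S100a9, 0.35 for Csf3r and -0.19 for Ifitm6, with the median of all genes at -0.11. Per mm2 of occupied section they became -0.47, -0.44 and -0.98, with the median at -0.90, and Ifitm6 was then 1.97-fold lower. A change of scaling moves all genes by the same amount, so the place of the 3 genes among the others did not depend on it.

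**Figure D4:**
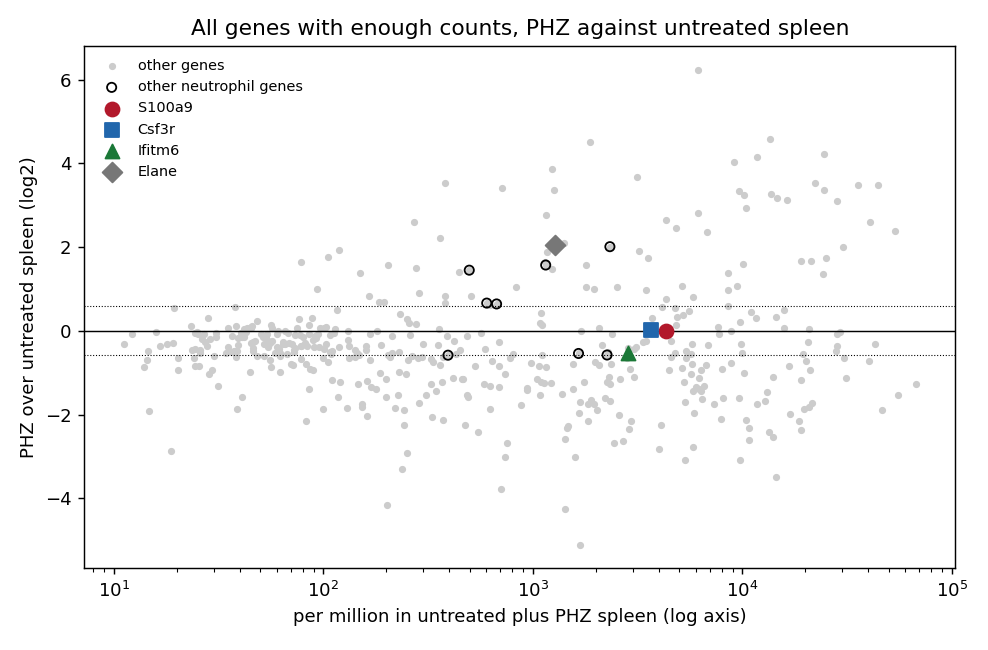
PHZ over untreated spleen on a log2 axis against the summed CPM of both spleens (log axis), 1 point per gene for the 472 genes with at least 100 transcripts; dotted lines mark 1.5-fold. S100a9 and Csf3r sit at 0, Ifitm6 at -0.53 and Elane at 2.05, and the open circles are the 8 other neutrophil genes.

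Other neutrophil genes did not move as one. This list and those that follow were chosen with earlier results of these data known. Their counts beside the shares of all genes are therefore descriptions and no test. Of the 8 in the list, 5 were at least 1.5-fold higher in the PHZ spleen and none was 1.5-fold lower in CPM, beside 16.5% and 41.5% of all genes, with a median log2 ratio of 0.65 beside -0.45. Il1r2 was 4.02-fold higher, Mmp8 2.97-fold, Mrgpra2a 2.73-fold, Stfa2l1 1.58-fold and Asprv1 1.56-fold. Cxcr2, Ly6g and Mmp9 had log2 ratios of -0.54, -0.58 and -0.58, near that of Ifitm6. Per mm2, 3 of the 8 were higher and 3 lower, where 12.7% of the 472 genes were higher and 65.04% lower.

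All 3 primary granule genes on the panel were at least 1.5-fold higher under each scaling, where between 12.7% and 20.6% of all genes were, with Ctsg 11.6-fold higher in CPM, Mpo 4.31-fold and Elane 4.15-fold. Of the 4 later granule genes measured, Mmp8 and Fcnb were higher, at 2.97-fold and 1.78-fold, the peptidoglycan-binding Pglyrp1 was 2.15-fold lower and Mmp9 stood at -0.58. Among the 4 monocyte genes F13a1 was 2.05-fold higher, Ccr2 3.70-fold lower and Clec4a3 1.91-fold lower, and Ms4a6c stood at -0.53.

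Genes that call or arm neutrophils also differed in both directions, with 4 of 11 at least 1.5-fold higher and 5 at least 1.5-fold lower, beside 16.5% and 41.5% of all genes, so that the count of lower genes was near the background. The chemokine genes Cxcl2 and Cxcl1, whose products are ligands of Cxcr2, were 14.6-fold and 4.63-fold higher, the acute-phase gene Saa3 22.9-fold and the complement receptor gene C5ar1 3.70-fold. The oxidase genes Cybb and Ncf4 were 3.55-fold and 4.48-fold lower. Markers of other cells were lower beside them, with 4 of 6 macrophage genes at least 1.5-fold lower and a median log2 ratio of -1.27, all 4 T cell genes at a median of -2.70 and the 1 B cell gene measured, Cxcr5, at -3.09. The part of these cells in the values of Cybb and Ncf4 was not tested. Of the G-CSF receptor pathway list only Csf3r was on the smaller panel. Of 7 genes induced by interferon, Rsad2 and Isg20 were at least 1.5-fold higher, at 8.95-fold and 5.46-fold. The other 5 were at least 1.5-fold lower, again beside 16.5% and 41.5% of all genes, so that Ifitm6 followed neither direction past the threshold. All 6 erythroid genes were also higher, at a median log2 ratio of 3.83. The part of erythroid cells in the values of Rsad2 and Isg20 was not tested.

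Behind these levels S100a9 and Csf3r were spread over cells differently. The cells with S100a9 were 8.46% of the untreated spleen (8.29 to 8.62) and 12.9% of the PHZ spleen (12.7 to 13.2), yet those with at least 10 transcripts were 413 and 144. For Csf3r the cells were 9.93% and 12.8%, and those with at least 10 were 86 and 15. Cells with at least 3 transcripts were more numerous in the PHZ spleen for both genes, at 2311 and 2729 for S100a9 and 1673 and 2189 for Csf3r. Per cell that held the gene, the mean was 2.47 and 2.02 transcripts for S100a9 and 1.76 and 1.74 for Csf3r.

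Ifitm6 went the other way on both counts. Its cells were 10.9% of the untreated spleen and 7.25% of the PHZ spleen, and those with at least 10 transcripts were 34 and 136. With each cell thinned to 50 transcripts, which left out 16939 and 14740 shallower cells, the shares were 5.90% and 7.80% for S100a9, 6.11% and 7.64% for Csf3r and 6.81% and 4.32% for Ifitm6, in the same directions. Segmented cells were also larger in the PHZ spleen, with a median area of 53.0 against 35.6 square micrometres, while nuclei were alike at 22.6 and 21.6, and the part of this in the shares was not tested.

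**Figure D5:**
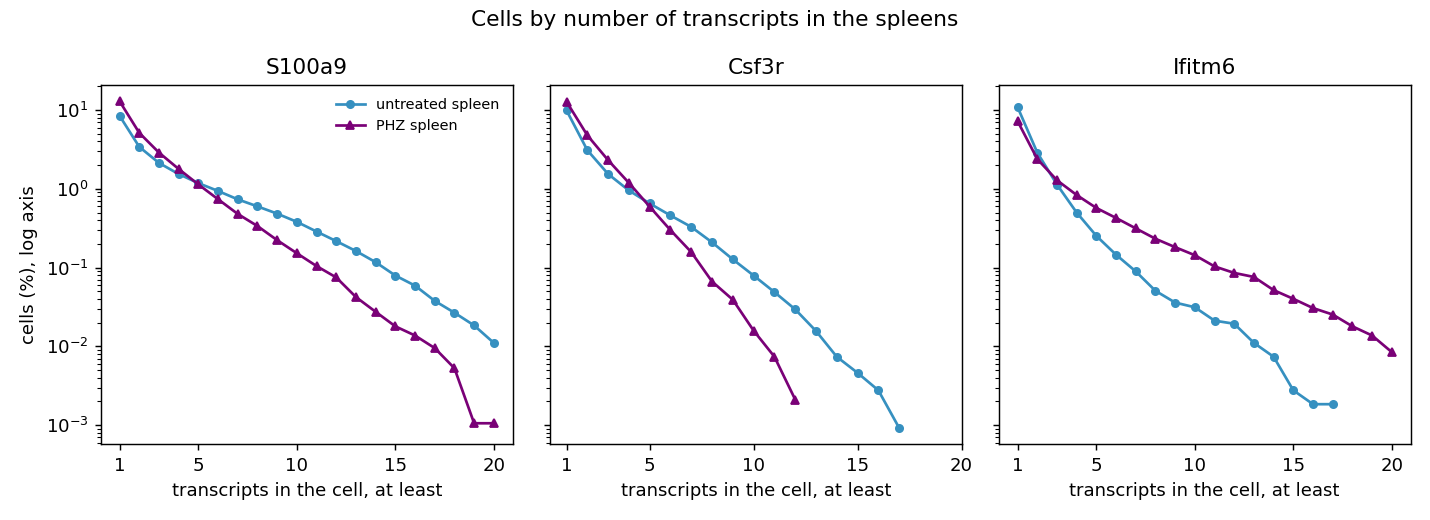
Share of cells (log axis) with at least the number of transcripts on the horizontal axis, for S100a9, Csf3r and Ifitm6 in the untreated and PHZ spleen. The PHZ curve starts above and ends below the untreated curve for S100a9 and Csf3r, and starts below and ends above it for Ifitm6.

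Transcript quality differed between the spleens and bears on these levels. Of all transcripts decoded, 90.5% passed a quality score of 20 in the untreated spleen and 70.9% in the PHZ spleen. For S100a9 the shares were 99.1% and 91.7%, for Ifitm6 98.7% and 91.7%, and for Csf3r 81.7% and 70.5%. Of the passing S100a9 transcripts, 98.1% lay in a cell in the untreated spleen and 92.6% in the PHZ spleen, the largest loss of the 3 genes, and 59.4% and 49.0% of those in cells lay over a nucleus. At a stricter score of 30 the log2 ratios were -0.21 for S100a9, -0.22 for Csf3r and -0.37 for Ifitm6. The part of quality in the comparison was not tested beyond these values.

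In space, S100a9 and Csf3r were lower in the lymphoid parts of the untreated spleen. Squares of 50 µm were ranked by the share of T and B cell genes and divided into 5 equal parts. S100a9 made 3594 CPM in the part with the lowest lymphoid share and 512.6 in that with the highest, and Csf3r 2235 and 800.3 after a maximum of 2614 in the next. Ifitm6 changed least, from 1500 in the lowest through 2173 in the middle part to 949.7 in the highest. Elane stood at 829.6 in the lowest and 127.3 in the highest, and in the lowest part the erythroid gene Slc4a1 was also highest.

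The PHZ spleen had few lymphoid transcripts, and its parts are not matched to those of the untreated spleen. There the highest levels lay in the fourth part, at 3320 for S100a9, 2502 for Csf3r and 1875 for Ifitm6, and Elane was highest there too at 2108. In the part with the highest lymphoid share S100a9 stood at 1658, Csf3r at 2306 and Ifitm6 at 1077.

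Across squares the Spearman correlation of S100a9 with Csf3r was 0.75 in the untreated spleen (1794 squares), 0.62 in the PHZ spleen (2696), 0.84 in the P8 marrow (2105) and 0.42 in the E14.5 liver (2719). That of S100a9 with Ifitm6 was 0.35, 0.55, 0.87 and 0.40. Squares share a section and differ in depth, and these values are descriptions. In the P8 section they also span marrow and skeletal tissue, and S100a9 with Elane stood at 0.73 there.

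Around S100a9-rich cells, those with at least 10 transcripts, other cells also held more of the genes. In the untreated spleen the mean S100a9 count of the other cells was 1.08 within 10 µm, 0.391 at 10 to 20 µm and 0.0429 beyond 80 µm. In the P8 marrow it was 2.85 within 10 µm, 1.73 at 10 to 20 µm, 1.28 at 20 to 40 µm and 1.04 at 40 to 80 µm. Beyond 80 µm it was 0.0647 in 17155 cells, which also held little Csf3r (0.00898) and Elane (0.0570). The means within 10 µm, at 10 to 20 µm and beyond 80 µm were in the PHZ spleen 1.42, 0.929 and 0.182, and in the E14.5 liver 1.31, 0.361 and 0.0703. Csf3r and Ifitm6 were also highest within 10 µm in each of the 4 sections, at 0.397 and 0.339 in the untreated spleen and 0.695 and 0.887 in the PHZ spleen. Transcripts of a neighbour placed in the wrong cell and neutrophils lying side by side cannot be told apart here.

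Cells with any of the 3 genes were deeper than cells with none, and in the spleens the depth went up with each further gene. The median depth was 79.0, 101, 113 and 131 transcripts in cells with none, 1, 2 and all 3 of the genes in the untreated spleen and 100.0, 113, 116 and 132 in the PHZ spleen. The medians in the P8 marrow were 100.0, 118, 116 and 127, and in the E14.5 liver 165, 186, 183 and 181.5. The share of cells with Elane went from 4.80% in cells with none to 59.96% in cells with 2 and 45.1% in cells with all 3 in the E14.5 liver. In the P8 marrow it went from 7.58% to 29.0% and 29.3%, in the untreated spleen from 0.861% to 3.23% and 7.68%, and in the PHZ spleen from 2.15% to 16.5% and 27.3%. Only in the E14.5 liver was the share lower with all 3 than with 2.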

How the data were processed

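Transcripts were read in situ by Xenium on sections cut at 5 µm from fixed, paraffin-embedded tissue. For adult bone marrow the paper describes fixation in paraformaldehyde, cryosectioning in gelatin and separation from bone before the paraffin step. The deposited counts are whole transcripts per gene and segmented cell at a quality score of at least 20, made by the instrument software (version 1.7.1.0 for the smaller panel, 3.1.0.4 for the larger), 1 section per sample, and the authors deposited the score, nucleus overlap and position of each transcript with them. No cell was filtered here, doublets were not called, and control probes were left out. The 2 spleens lay on 1 slide, the E14.5 liver and P8 marrow on another, and the larger panel was a separate run.

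Levels, co-detection within depth strata, marker-list classes (a list at least 1.5-fold over its expected count with at least 3 counts; 11425 PHZ cells were within 20% of that ratio), partner genes (the first 5 by ratio for each gene and section) and squares were computed with Python 3.11.15, NumPy 2.4.6, SciPy 1.17.1 and pandas 2.3.3, and the code was tested on simulated data. Genes were compared between sections where both together held at least 100 transcripts, as called at a 1.5-fold ratio of CPM (counts of a gene per 1000000 gene transcripts placed in cells). No test between conditions was possible with 1 section each. The 3 genes and all gene lists were chosen with earlier results of these data known.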

Additional observations from a re-analysis of the deposited data

How the results depend on the processing

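The log2 ratio of PHZ over untreated spleen for S100a9, -0.02 in CPM, was 0.32 per cell, -0.47 per mm2, 0.037 without Hbb-bt in the total, -0.085 over nuclei, 0.051 with transcripts outside cells, -0.21 at a quality score of 30 and 0.19 with cells thinned to 50 counts. That of Csf3r, 0.01, was 0.35, -0.44, 0.063 and 0.045 under the first 4 of these, -0.22 at the stricter score and 0.30 when thinned. That of Ifitm6, -0.53, was -0.19, -0.98, -0.48 and -0.47 under the same 4, -0.37 at the stricter score and -0.35 when thinned. Without the erythroid list in the total, a setting chosen after seeing the data, they were 0.19, 0.22 and -0.32. The changes of total, area or cell number move all genes alike and cannot alter the order of the 3. Over nuclei, at the stricter score and when thinned, where the order could change, Ifitm6 was the lowest of the 3. Keeping cells with at least 20 counts moved none of the 3 beyond its interval.

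Of 26 pairs, 25 were seen together more often than expected, 26 at 2 transcripts of each or without strata, 23 of 24 over nuclei, and 25 in cells with at least 20 counts or with depth taken without both genes, the last also chosen after seeing the data. No pair changed sign. Ratios above 1 were common with other genes too, as given above. The Csf3r level was higher in all 6 sections when the total was taken over the genes of both panels. This follows from the smaller total and is no test of the level. A marker ratio of 3 in place of 1.5 moved the share of a gene's transcripts in neutrophil-marked cells beyond its interval in 3 of 14 cases. Leaving out the later granule list, chosen after seeing the data, moved it in 13 of 14, upward each time, and by over 1.5 times for S100a9 and Csf3r in the E14.5 liver and for Ifitm6 in the P8 marrow and both spleens, the last from 13.0% to 33.0% after PHZ. No paired analysis was possible because each condition had 1 section. The E13.5 liver, with 24 Csf3r transcripts, limits what can be said of that stage.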
